A study of Mus musculus with 8 samples.

Results

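The RNAs of 10 genes that encode the elongation machinery of RNA polymerase II were examined for peaks of MBD5 and MBD6, 2 methyl-CpG-binding domain proteins that partner with a chromatin deubiquitylase. The genes were Polr2a for the largest polymerase subunit, Supt5 and Supt6 for the SPT factors, Supt16 and Ssrp1 for FACT, and Ctr9, Paf1, Leo1, Rtf1 and Cdc73 for the PAF1 complex. A peak belonged to a gene when its midpoint lay in the gene body on the same strand (mouse build mm10, GENCODE release M21). The 10 genes held 203 of the 29555 peaks of the series, and these merged into 72 of 12074 sites, a site being a run of overlapping peaks from any of the libraries.

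The measurement was CLIP–seq, in which RNA crosslinked to a protein is immunoprecipitated with it and sequenced, and which asks which RNAs each protein touched. Wild-type mouse embryonic stem (mES) cells carried a stably overexpressed, Flag-tagged human MBD5 or MBD6 coding sequence, and 2 CLIP libraries per protein had peak lists. All cells grew with LIF, 3 µM CHIR99021 and 1 µM PD0325901, were selected with 100 mg/L hygromycin, and their immunoprecipitates were digested with RNase T1 at 8 U/µl for 10 min. The characteristics in the labels and the study's methods name a Flag antibody, whereas the extraction protocol in the labels names one against MBD6. The cells kept their endogenous genes, no immunoprecipitation from untagged cells was analysed here, and the labels do not say whether the 2 libraries of a protein came from separate cultures. The labels give embryos as the tissue. Of 20 mES cell marker genes, 16 had a peak in at least 1 library and 9 in all 4, whereas 0 of 10 feeder fibroblast markers had a peak. Among all protein-coding genes, 19.4% had a peak in any library and 7.78% in all 4, and the feeder list is short.

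During elongation, RNA polymerase II travels with factors that keep it processive and pass it through nucleosomes. SPT5 binds the polymerase as part of DSIF, SPT6 and FACT are histone chaperones that take histones off and put them back, and the PAF1 complex links the polymerase to histone modification in its wake. Several of these proteins carry long runs of aspartate and glutamate, which serve histone chaperones in holding the basic histones, and their messenger RNAs therefore contain runs of the codons GAA, GAG, GAC and GAT. The genes were listed with such acidic or charged segments in view.

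The RNA at the start of the strongest site of each gene is shown first, since RNase T1 cuts after G and the 5′ end of a peak lies near the 5′ ends of the recovered fragments. Each window holds 30 nt of the site, in the sense of the gene, from the peak 5′ end shared by most libraries or, failing that, with most reads. In Polr2a this end lay well inside the merged site, where the 5′ ends of the libraries spread over 148 nt. Sequence was taken from the GENCODE transcripts, and capitals mark the in-frame codons for aspartate or glutamate. The strongest site was the one with the highest mean number of reads at the summit over the 4 libraries, where a library without a peak counted as 0.
Polr2a exon 29 (chr11:69734483-69734512, minus strand): ctccacctactctcccacttctcctggcta
Supt5 exon 4 (chr7:28330616-28330645, minus strand): atgtaGATGATGAAtatGAAGATGAAGACc
Supt6 exon 3 (chr11:78232795-78232824, minus strand): agGAAGAGGAGaatctaGATGATcaaGATg
Supt16 exon 13 (chr14:52176696-52176725, minus strand): aatGAGatgactgcaGAAGAGaagcgaaga
Ssrp1 exon 11 (chr2:85042796-85042825, plus strand): ccaatGACagcagcGACGACtcaggaGAAg
Ctr9 exon 21 (chr7:111051461-111051490, plus strand): tctcagaGAAaagGAAGAAcaaaagaaact
Paf1 exon 10 (chr7:28396660-28396689, plus strand): tgGAAGAAacactaaagaaacgaaagcggg
Leo1 exon 2 (chr9:75445495-75445524, plus strand): cacagtggctctGAAgcccacaacGATGAC
Rtf1 exon 5 (chr2:119711002-119711031, plus strand): aaaGAGaagaaaGAAaaaaagaaaaagcag
Cdc73 exon 7 (chr1:143677800-143677829, minus strand): aaaaaattgctgcaatcaaagccaaaatta
The windows of Supt5, Supt6 and Ssrp1 held the most acidic codons, 7, 6 and 4 of 9 complete codons, whereas those of Polr2a and Cdc73 held 0. The Rtf1 window encoded basic residues instead, with 7 of 10 codons for lysine or arginine. A further 3 windows are shown for their acidic codons and were chosen after their values were seen. Supt16 exon 12 and Supt6 exon 8 held the most among the remaining sites, and Supt16 exon 26, with 6, tied with Supt5 exon 3, Supt6 exon 2 and Leo1 exon 6 and had the most reads of these.
Supt16 exon 12 (chr14:52177005-52177034, minus strand): atGAAGAGGAGGAGGAAGAGaaaGATGAGg
Supt6 exon 8 (chr11:78230210-78230239, minus strand): agGATGATGAGctaGAAGAGGAAgctGACt
Supt16 exon 26 (chr14:52161788-52161817, minus strand): cggGAAagccgttatGAGGAGGAAGAAGAA
In the spliced transcript, G preceded every one of these 13 windows except that of Supt16 exon 26, which followed C. None of the 13 windows occurred in a transcript of another gene.

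The peak lists did not hold read totals, so the reads at each summit and the total per library were solved from the deposited values. The estimated totals were 478790 and 500143 reads for Flag-MBD5 against 983918 and 1111742 for Flag-MBD6. Replicates of 1 protein differed by no more than sampling noise. At the sites of the 10 genes found in all 4 libraries, chi-square per degree of freedom was 0.634 for the pair of Flag-MBD5 libraries and 0.428 for the Flag-MBD6 pair, whereas pairs of different proteins gave 1.49 to 1.65. Reads were expected in proportion to estimated depth alone, so an offset between the proteins that sites share enters these last values. Over strong sites of the whole series the replicate values were 0.519 (685 sites) and 0.872 (277 sites). Each protein was therefore counted as 1 sample, no test over samples was made, and the intervals given are 95% intervals that cover counting error only.

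All 10 genes had a peak in at least 1 library and 9 had one in all 4, with Paf1 as the exception. Among 22028 protein-coding genes, 19.4% had a peak in any library and 7.78% in all 4. The 10 genes held 47 and 40 peaks in Flag-MBD5 replicates 1 and 2, and 59 and 57 in Flag-MBD6 replicates 1 and 2. The ratio of Flag-MBD6 to Flag-MBD5 peaks was thus 1.33, against 1.75 over all peaks, where the Flag-MBD6 libraries held 2.14 times as many estimated reads. When each library was limited to the same number of best peaks, the ratio in the 10 genes was 0.943. At that setting the proteins have equal numbers of peaks over all genes by construction. Of the 72 sites, 35 were found in all 4 libraries (29.5% of all sites were) and 20 in 1 library alone (30.8% of all sites). No peak lay antisense to any of the 10 gene bodies. No member peak had its midpoint in a second annotated gene on its strand. RNA levels were not measured in these lists, so more binding per transcript and more transcript cannot be told apart.

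**Figure D1:**
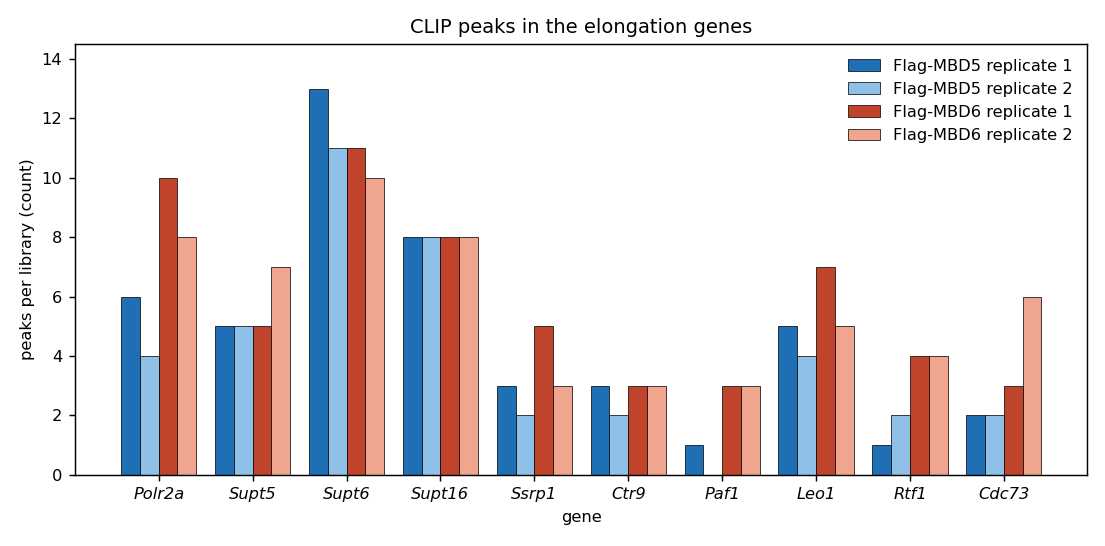
Number of deposited peaks (vertical axis) in each of the 10 elongation genes (horizontal axis), with 1 bar per CLIP library and no error bars. Supt6 had 13, 11, 11 and 10 peaks and Supt16 had 8 in every library, whereas Paf1 had 1, 0, 3 and 3.

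Polr2a encodes the catalytic subunit whose carboxy-terminal repeats are phosphorylated as the polymerase leaves promoters and elongates. It had 6 and 4 Flag-MBD5 peaks against 10 and 8 for Flag-MBD6. These fell into 13 sites, of which 2 were found in all 4 libraries and 6 in 1 library. The site ranked strongest, from codon 1937 in exon 29 (the last exon, which encodes the repeats), had 19 and 25 summit reads with Flag-MBD5 and 33 and 36 with Flag-MBD6. The other exon 29 site, from codon 1621, had 28, 35 and 45 reads in Flag-MBD5 replicates 1 and 2 and Flag-MBD6 replicate 2, and no peak in Flag-MBD6 replicate 1. It had more reads than the first in each library where it had a peak, and its mean of 27 against 28.25 rests on the missing peak counted as 0. Another site lay in the 5′ untranslated region, 297 nt before the start codon, with 12, 15, 18 and 21 reads. The local background under Polr2a was high. All 28 Polr2a peaks lay over a background above the lowest rate of their library and strand, with a median of 2.77 times that rate. This was so for 38.9% of the 175 peaks in the other 9 genes and for 48.5% of all peaks. The deposited fold enrichment of Polr2a peaks lay between 4.54 and 11.8.

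Supt5 encodes SPT5, the DSIF subunit that closes over the polymerase and has an acidic amino terminus. Of its 7 sites, 5 were found in all 4 libraries, and these lay in exons 2, 3, 4, 6 and 12. The exon 4 site (chr7:28330457-28330648) was the strongest, with 38 and 42 summit reads for Flag-MBD5 against 84 and 94 for Flag-MBD6. Scaled to the depth of the Flag-MBD5 library of the same number, the Flag-MBD6 values became 40.9 and 42.3. Per depth the libraries of the proteins overlapped, with a ratio of Flag-MBD6 to Flag-MBD5 of 1.04 (interval 0.794 to 1.37). The exon 3 site had 16 and 9 reads with Flag-MBD5 and 35 and 28 with Flag-MBD6, and the pair of Flag-MBD5 values was the least alike of any site in the 10 genes, at 0.89 on the log2 scale per depth. The exon 2 site began 6 nt before the start codon and had 10, 19, 27 and 24 reads. The sites in exons 5 and 24 were found in Flag-MBD6 replicate 2 only.

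Supt6 encodes SPT6, the histone chaperone that binds the elongating polymerase. It had more peaks than any other of the 10 genes, with 13, 11, 11 and 10 in 13 sites, 10 of them in all 4 libraries. It was also the only gene of the 10 with fewer peaks per library for Flag-MBD6 than for Flag-MBD5 (ratio 0.875). The exon 3 site (chr11:78232423-78232825) had the most summit reads of all 72 sites, at 54 and 58 with Flag-MBD5 and 104 and 117 with Flag-MBD6. Per depth the Flag-MBD6 values became 50.6 and 52.6, a ratio of 0.922 (0.731 to 1.17). The exon 7 site was close behind, with 50 and 45 against 94 and 101 reads and a ratio of 0.959 (0.747 to 1.24). Between exons 1 and 8, all exons but 4 held a site that was found in every library.

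A pair of Supt6 sites were the only ones of the 10 genes past 2-fold in either direction. At the exon 8 site (chr11:78230065-78230245) Flag-MBD5 had 18 and 18 summit reads and Flag-MBD6 13 and 18, which are 6.33 and 8.10 per Flag-MBD5 depth. The ratio was 0.402 (0.241 to 0.669), a log2 ratio of −1.31. At the exon 30 site (chr11:78212611-78212865) the reads were 22 and 15 against 15 and 21, or 7.30 and 9.45 per depth, with a ratio of 0.454 (0.279 to 0.739). In both, the libraries of the proteins did not overlap per depth. Among all 3566 sites found in every library, 9.93% lay past 2-fold lower in Flag-MBD6 and 0.869% past 2-fold higher. Relative to the median of all sites, neither Supt6 site was past 2-fold. Without Flag-MBD5 replicate 1 only the exon 8 site remained past it, and without any 1 of the other libraries there were 3 sites, these 2 among them. The other was then Polr2a exon 15 without Flag-MBD5 replicate 2, Supt6 exon 12 without Flag-MBD6 replicate 1 and Supt6 exon 37 without Flag-MBD6 replicate 2. The exon 12 site was next lowest, with 27 and 30 reads against 38 and 31 and a ratio of 0.565 (0.392 to 0.818).

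Supt16 and Ssrp1 encode the subunits of FACT, which binds histones H2A and H2B and reorganizes nucleosomes. Supt16 had 8 peaks in each of the 4 libraries, and 7 of its 9 sites were found in all of them. The exon 13 site (chr14:52176306-52176726) was the strongest, with 41 and 40 summit reads for Flag-MBD5 against 74 and 77 for Flag-MBD6. The next strongest, in exon 26, the last exon, had 44 and 43 against 65 and 65 reads, and its ratio of 0.698 (0.528 to 0.927) was the only one in Supt16 with an interval wholly under 1. The exon 24 and exon 25 sites, which lie in the same acidic tail, had ratios of 0.968 (0.696 to 1.36) and 0.979 (0.67 to 1.45). The acid-rich exon 12 window printed above had few reads, with 9 in Flag-MBD5 replicate 2, 16 and 14 with Flag-MBD6, and no peak in Flag-MBD5 replicate 1.

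Ssrp1, the HMG-box subunit, was less covered, with 3, 2, 5 and 3 peaks. Of its 7 sites, 5 were found in 1 library, and 2 in all 4. The exon 11 site (chr2:85042769-85042956) had 17 and 21 summit reads with Flag-MBD5 and 23 and 24 with Flag-MBD6, a ratio of 0.578 (0.369 to 0.911). The exon 10 site had 9 and 11 against 17 and 21 reads, a ratio of 0.888 (0.504 to 1.61). The subunits of FACT thus differed in how many sites recurred, with transcripts of 4673 nt for Supt16 and 2739 nt for Ssrp1.

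Leo1 stood out within the PAF1 complex. LEO1 pairs with PAF1 and binds the complex to chromatin. Leo1 had 5, 4, 7 and 5 peaks in 7 sites, 4 of them in all 4 libraries. At 1.83 per kb of transcript these were the most closely spaced of the 10 genes. That measure includes untranslated regions and the Leo1 transcript is short, at 2180 nt with 667 codons. Supt16, with 7 such sites in 1047 codons of a 4673 nt transcript, had more of them per codon. The exon 2 site (chr9:75445484-75446086) had 41 and 33 summit reads for Flag-MBD5 against 73 and 68 for Flag-MBD6. It was 603 bp wide and its summits lay up to 226 nt apart in different libraries, so these reads may come from different places in it. The site in the last exon, exon 12, had 39 and 28 against 56 and 58 reads and a ratio of 0.795 (0.583 to 1.09). The exon 11 site was found in both Flag-MBD6 libraries, with 19 and 25 reads, and in neither Flag-MBD5 library.

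Ctr9, the scaffold of the complex, had 3 sites, and 2 were found in all 4 libraries. Its strongest, in exon 21 (chr7:111051461-111051699), had 16 and 21 reads with Flag-MBD5 and 22 and 30 with Flag-MBD6, a ratio of 0.656 (0.422 to 1.03). The exon 3 site had 9, 9, 14 and 13 reads, where peaks were listed from 5 reads for Flag-MBD5 and from 6 for Flag-MBD6. Neither interval lay wholly under 1.

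Rtf1, which promotes ubiquitylation of histone H2B, had 1 and 2 peaks with Flag-MBD5 and 4 and 4 with Flag-MBD6. The exon 5 site (chr2:119710994-119711188) was found in all 4 libraries, with 29 and 20 against 43 and 48 reads and a ratio of 0.868 (0.606 to 1.25). The exon 3 and exon 6 sites were found only in the Flag-MBD6 libraries, with 12 and 22 reads and with 12 and 25 reads. Per Flag-MBD5 depth these were 5.84 and 9.90 and 5.84 and 11.2, above the 5 reads from which peaks were listed in the Flag-MBD5 libraries.

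Cdc73 encodes parafibromin, a tumour suppressor. It had 2 and 2 against 3 and 6 peaks. The exon 7 site (chr1:143677530-143677829) had 19 and 14 reads with Flag-MBD5 and 30 and 46 with Flag-MBD6, a ratio of 1.08 (0.706 to 1.67). The exon 1 site began 9 nt before the start codon and had 11 and 11 against 32 and 36 reads. Its log2 ratio of 0.53 was the highest of the 35 sites, and the interval of its ratio of 1.44, from 0.881 to 2.45, included 1. Of the other 4 sites, all without a Flag-MBD5 peak, 3 were found in Flag-MBD6 replicate 2 alone.

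Paf1 was the gene with least in common between the proteins. It had 1 and 0 peaks with Flag-MBD5 and 3 and 3 with Flag-MBD6, and 0 of its 3 sites were found in all 4 libraries. The exon 10 site (chr7:28396654-28396987) had 32 and 33 summit reads with Flag-MBD6, or 15.6 and 14.8 per Flag-MBD5 depth, and no peak in either Flag-MBD5 library although peaks there were listed from 5 reads. It was the only 1 of 29 sites in the 10 genes with at least 10 such scaled reads in both Flag-MBD6 libraries and no Flag-MBD5 peak, a limit set after this site was seen, and 12.1% of 3753 such sites in the whole series lacked a Flag-MBD5 peak. The exon 13 site, on an acidic stretch, had 5 reads in Flag-MBD5 replicate 1 and 14 and 15 with Flag-MBD6. The exon 7 site had 11 and 13 reads with Flag-MBD6 only.

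**Figure D2:**
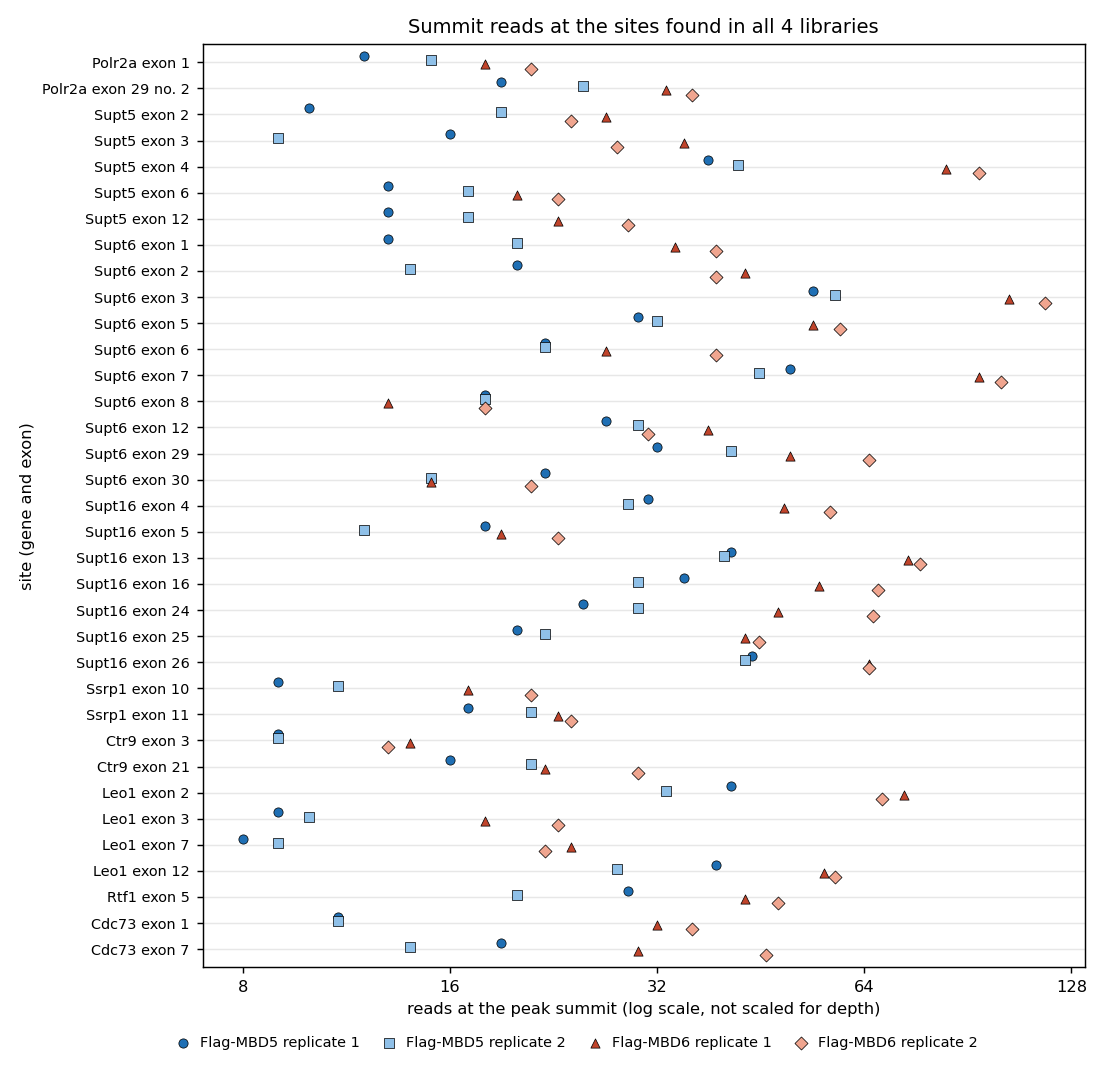
Reads at the peak summit (horizontal axis, log scale, not scaled for depth) at the 35 sites of the 10 genes found in all 4 libraries (vertical axis, by gene and exon in the order of the text, with points of 1 site set slightly apart in height). At every site except Supt6 exons 8 and 30, both Flag-MBD6 libraries, which were the deeper ones, lie to the right of both Flag-MBD5 libraries.

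Taking sites and regions over all 10 genes, Flag-MBD5 had 37 reproducible regions, found in both of its libraries, and Flag-MBD6 had 49. An MBD6 region overlapped 35 of the 37, or 94.6% (81.8% to 99.3%, exact binomial interval), against 90% of 4019 MBD5 regions in the series. An MBD5 region overlapped 35 of the 49, or 71.4% (56.7% to 83.4%), against 47.7% of 7484. With the same number of best peaks from each library these shares became 78.4% of 37 and 85.3% of 34. The shares over all regions were not computed at that setting, so the values of the series given above are not their base. Of the 72 sites, 7 were found in both Flag-MBD6 libraries and in no Flag-MBD5 library, against 20.6% of all sites. The reverse held for 0 of the 72 and for 1.28% of all sites. Peaks of the 10 genes had median summit reads of 18 and 20.5 with Flag-MBD5, against 16 and 16 over all peaks, and of 22 and 25 with Flag-MBD6, against 20 and 21. The part of peak strength in the overlap was not tested.

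Per depth, the 35 sites had a median log2 ratio of Flag-MBD6 to Flag-MBD5 of −0.23, between −1.31 and 0.53, and the median of all 3566 sites was −0.34. Relative to that median, the median of the 35 sites was 0.10 and so above 0, with 22 sites above and 13 below. With the deposited fold enrichment in place of reads per depth, the median was 0.46 against 0.41 over all sites. The authors collapsed identical reads and let at most 5 reads count per position, which limits the reads a strong site can have, and the part of this in the ratios was not tested. The interval of the ratio lay wholly under 1 at 5 of the 35 sites (Supt6 exons 8, 12 and 30, Supt16 exon 26 and Ssrp1 exon 11) and wholly above 1 at 0. Over all 3566 sites these shares were 33.7% and 4.85%. By gene, the median log2 ratio ran from −0.56 for the 2 Ctr9 sites to 0.32 for the 2 Cdc73 sites, with −0.34 for the 10 sites of Supt6, −0.20 for the 7 of Supt16 and −0.28 for the 5 of Supt5.

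**Figure D3:**
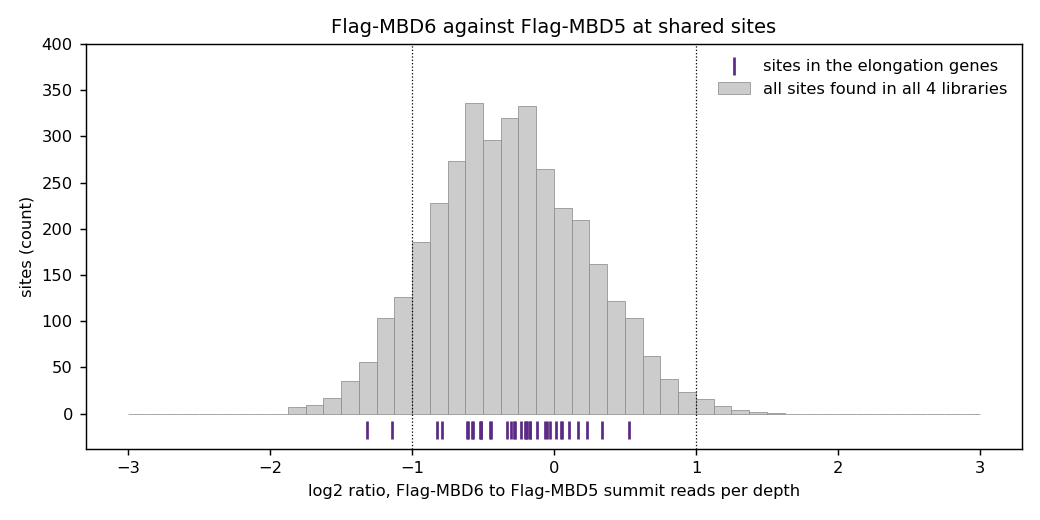
Log2 ratio of Flag-MBD6 to Flag-MBD5 summit reads per depth (horizontal axis) for all 3566 sites found in the 4 libraries (grey bars, count of sites on the vertical axis) and for the 35 sites of the 10 genes (marks under the bars), with dotted lines at 2-fold. The marks spread from −1.31 to 0.53 within the range of the grey bars, and 2 lie past the lower line.

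Most peaks of the 10 genes began in coding exons. Across the 4 libraries, 95.6% of them had coding sequence 15 nt inside their 5′ end, against 79% of all peaks, of which 13.7% lay there in non-coding exons. All 10 genes are protein-coding, and their peaks were classed on their own transcripts alone. Exons of non-coding genes could thus not count for them, and part of the contrast follows from the choice of genes. At the midpoint 52.2% lay in coding sequence and 36.9% in introns. The authors extended each read to 150 bp on the genome, and the part of this in the difference was not tested. Of the 72 sites, 68 began in coding sequence and 4 in a 5′ untranslated region (Polr2a, Supt5, Supt6 and Cdc73), and 0 began in a 3′ untranslated region. At 3 sites no 5′ end lay in an annotated exon, and the nearest exon base, up to 45 nt downstream, was used. The farthest was the Supt6 exon 1 site, with 13 and 20 against 34 and 39 reads, which began upstream of the annotated transcript start. Coding sites began within 10 nt of the upstream edge of their exon in 13 of 68 cases, or 19.1%, against 13.8% of 9060 coding sites elsewhere. Unspliced alignment cannot place a read across such an edge.

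Acidic codons were frequent at these starts. In the 30 nt windows of all peaks of the 10 genes, 27.25% and 32.9% of complete codons encoded aspartate or glutamate with Flag-MBD5 and 29.8% and 27.4% with Flag-MBD6. Over all coding peaks the shares were 23.3%, 23.1%, 23.1% and 22.9%. Counting each site once, the share was 26% of 635 codons, against 17.2% in the whole coding sequences of the 10 genes. For the 9060 coding sites of other genes it was 21.8%, against 13.5% in their transcripts. Both sets of windows thus held more acidic codons than the sequences they came from, and the 10 genes, which were listed for acidic segments, started from a higher level. Codons for lysine or arginine made up 19.7% in the windows of all peaks of the 10 genes, against 20.7% over all coding peaks. In the whole coding sequences of the 10 genes they ranged from 10.3% in Polr2a to 19.4% in Rtf1. A higher share in the windows was thus not particular to acidic codons.

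The genes differed in the acidic share of their windows, which rests on few codons in some, with 27 in Ctr9, 28 in Paf1 and 39 in Rtf1. Windows in Supt5 (35.2% against 16.4% in its whole coding sequence), Supt16 (35.7% against 17.5%), Supt6 (32.4% against 19.5%) and Paf1 (35.7% against 23.2%) were more acidic than the gene. In Leo1 (29.9% against 29.8%), Polr2a (10.5% against 10.5%) and Ssrp1 (18.5% against 17.4%) they were near it. Rtf1 had 28.2% against 19%, Ctr9 25.9% against 16.6% and Cdc73 17.4% against 12.8%. The windows of these 3 genes were also the most basic, with 41%, 33.3% and 37% of codons for lysine or arginine. Their whole coding sequences held 19.4%, 15.2% and 16.6% of such codons. Windows of at least 5 acidic codons numbered 11 of 68, or 16.2%, against 7.40% elsewhere. A higher share was built in, since the 10 genes were listed for acidic segments. Their coding sequences held 17.2% acidic codons, against 13.5% in the transcripts of the other genes. The 11 windows lay in Supt5 exons 3 and 4, Supt6 exons 2, 3 and 8, Supt16 exons 12, 24 and 26, Paf1 exon 13, Leo1 exon 6 and Rtf1 exon 4. Of these 11 sites, 7 were found in all 4 libraries, and their log2 ratios of Flag-MBD6 to Flag-MBD5 ran from −1.31 at Supt6 exon 8 to 0.24 at Supt5 exon 3.

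On a broader scale, acid-dense stretches were defined as codons around which at least 30% of 51 codons were acidic. Such stretches made up 11.7% of the coding sequences of the 10 genes, and 18 of 68 sites, or 26.5%, began in them. In the other genes they made up 2.13% of the coding sequence and 7.13% of sites. Supt5 had 4 of its 6 coding sites in its amino-terminal stretch, which is 10.8% of the gene, and Supt6 had 5 of 12 in 15.8%. Supt16 had 3 of 9 in 11.7%, and its densest point, at codon 949, lay between the sites of exons 24 and 25. Leo1 is different in that 50.7% of its codons lay in such stretches, which held 3 of its 7 sites. Paf1 had 1 of 3 in 22.4%, Rtf1 1 of 4 in 13.4% and Ssrp1 1 of 7 in 9.04%. Ctr9 had 0 of 3 in 4.52%, Polr2a 0 of 12 in 0.254%, and Cdc73 had no such codons. The genes are few and the sites of a gene share its sequence, so these shares are a description.

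**Figure D4:**
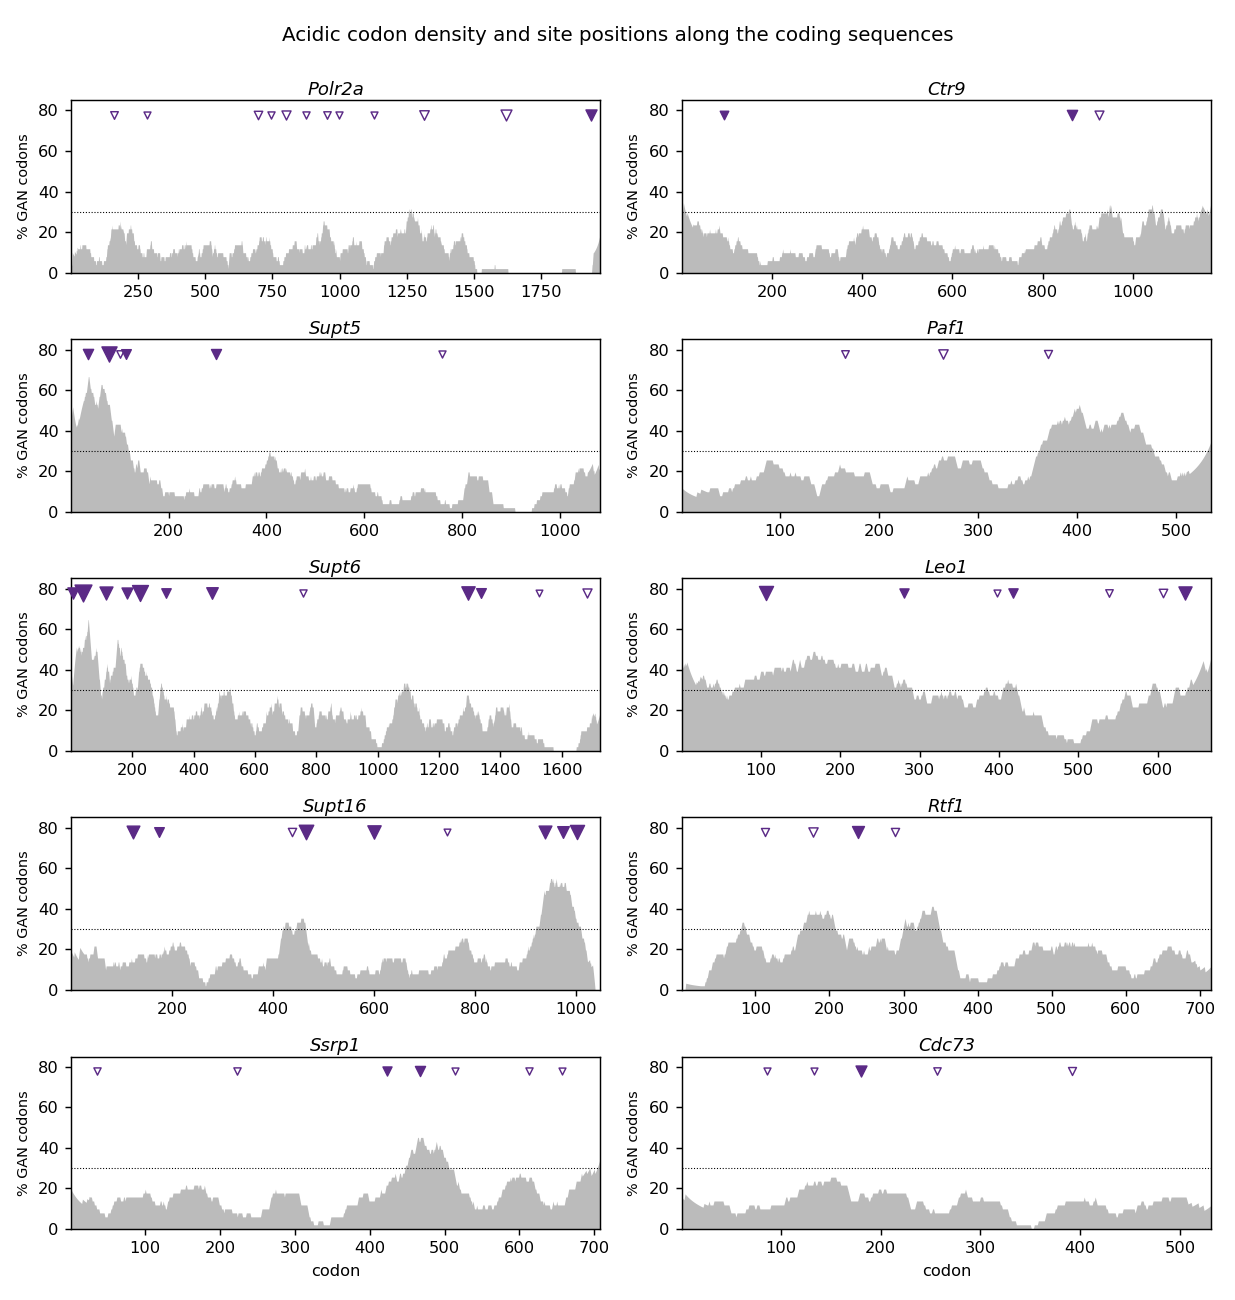
Share of GAA, GAG, GAC and GAT among the 51 codons around each codon (grey, vertical axis, percent, with a dotted line at 30%) along the coding sequence of each gene (horizontal axis, codon), with site starts as triangles at the top, filled where a site was found in all 4 libraries and larger with more mean summit reads. The filled triangles of Supt5 and Supt6 crowd over the acidic amino-terminal codons and 3 of Supt16 stand over its carboxy-terminal ones, whereas 0 Polr2a sites start where the share reaches 30%.

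G came just before the 5′ end of 80%, 83.8%, 78.2% and 78.8% of the peaks in the 10 genes, in the order of Flag-MBD5 replicates 1 and 2 and Flag-MBD6 replicates 1 and 2. Over all peaks the shares were 81%, 80.2%, 72.4% and 71.8%. RNase T1 leaves such ends, and C came next in the 10 genes with 15.6% to 19.2%. The study took both MBD5 and MBD6 as readers of methylated cytosine in RNA and did not limit this to CG. The dinucleotide CG, looked up because of the name of their domain, was present in the 30 nt window of 41 of 68 coding sites. That is 60.3%, against 59.4% of coding sites elsewhere. Cytosine made up 19.5% of bases in the windows of the 10 genes and 21.2% elsewhere. The 5′ ends of the 4 libraries lay within 10 nt of each other at 12 of the 35 sites, or 34.3%, against 39.7% of all sites in the 4 libraries, with median spreads of 15 and 14 nt.

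A wider list of 61 other elongation and nucleosome-handling genes was looked up in the same way. Of these, 37 had a peak in any library (19.4% of protein-coding genes did) and 21 in all 4 (7.78%), and they held 49 sites found in every library with a median log2 ratio of −0.19. Past 2-fold, 3 of the 49 were lower in Flag-MBD6 (9.93% of all sites were) and 0 higher (0.869%). The most summit reads at a single site were in the histone chaperone gene Nap1l1, with 50, 57, 89 and 103, below the 54, 58, 104 and 117 of Supt6 exon 3. Aff4, a scaffold of the super elongation complex, had 70, 67, 63 and 78. Iws1, a partner of SPT6, had 21, 21, 75 and 86 reads, and the median log2 ratio of its sites found in all 4 libraries was 0.61, above each of the 35 sites of the 10 genes. Rpap1, a polymerase-associated protein, had 25, 30, 71 and 72.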

How the data were processed

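As the study's methods state, the authors trimmed, filtered and collapsed the reads, removed ribosomal RNA, aligned the rest to mm10 with Bowtie 1.0.0, split strands with SAMtools 1.16.1 and called peaks with MACS2, keeping q under 0.01. In the deposited lists, the score is 10 times −log10 q as a whole number, the fold enrichment is a ratio of summit signal to local background, and the columns of −log10 p and −log10 q come from MACS2. The deposited summit, of another unit, counts bases from the peak start. Summit reads and background rates were solved from the deposited fold and −log10 p (100% of peaks solved, against at most 2.25% with shuffled p), and library totals came from the lowest rate. The scripts (Python 3.11.15, NumPy 2.4.6, SciPy 1.17.1) were tested on simulated data.

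Sites merged overlapping peaks (1 bp, same strand) of the 4 libraries. The named sites were each gene's strongest, those found in all 4 libraries and those past 2-fold, plus others needed to account for a gene. Ratios per site have exact conditional binomial intervals and shares have Clopper-Pearson intervals. Acidic residues were counted as codons of GENCODE transcripts, because no protein sequences were used here, and exons follow 1 transcript per gene. The members, lists and rules were chosen with earlier results of these data known. The alternatives covered the q threshold, overlap, position, strand, equal peak numbers, scaling, window, replicate block and leaving out each library. The 4 input samples were not analysed here. The study's methods do not say whether they served as the control for the local background in the peak calling. The values of 1 gene of the wider list are not reported here.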

Additional observations from a re-analysis of the deposited data

How the results depend on the processing

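Across the 9 results on the 10 genes, 67 of 74 values under the alternatives stayed near the main value, and 7 moved. Near meant within the spread or interval of the main value or, for the counts of regions, within a fixed fold of it. That fold let the MBD6 regions fall from 49 to 34 with the same number of best peaks. Ignoring the strand could not move a value, because no peak lay antisense to the 10 genes. The spread was that of the 4 pairs of these same libraries, so leaving out a library was a weak check. Where leaving out a library left 1 for a protein, all peaks of that library counted as its regions. With the same number of best peaks from each library, the ratio of Flag-MBD6 to Flag-MBD5 peaks became 0.943. The share of MBD5 regions overlapped by an MBD6 region became 78.4%, and the share of MBD6 regions overlapped by an MBD5 region 85.3%. At that setting both proteins have equal numbers of peaks over all genes, and the overlap shares over all regions were not computed. The median log2 ratio per site became 0.46 with the deposited fold enrichment, which adds 1 read to both the summit and the background and so grows with depth, and 0.10 when scaled by the median of all sites. The share of peaks in coding sequence became 52.2% at the midpoint, and the share of acidic codons 26.8% over 60 nt. None of the 9 results moved when a library was left out, and the ranges were 1.23 to 1.45 for the peak ratio, 37 to 47 MBD5 regions, 49 to 59 MBD6 regions, 83.0% to 97.3% and 61.0% to 79.6% for the overlap shares, −0.26 to −0.21 for the median log2 ratio, 95.1% to 95.9% for coding sequence, 28.2% to 29.8% for acidic codons and 78.9% to 80.6% for G before the 5′ end. The number of sites past 2-fold lower in Flag-MBD6, 2 as reported, was checked under alternatives chosen after seeing the data. It became 0 with the fold enrichment or the scaling by all sites, and 1 without Flag-MBD5 replicate 1, against 3 without any other library.

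Between libraries of equal replicate number, deviations from the protein means correlated at 0.0297 over 3566 sites. Replicates of a protein differed by no more than sampling noise, so this value cannot show whether such samples were paired. With the replicate block the peak ratio was 1.34 and the median log2 ratio −0.21. Depth limited the weaker sites, such as Ctr9 exon 3 with a ratio between 0.372 and 1.35, and a missing peak says only that the threshold was not passed. With each protein as 1 sample, differences between cultures could not be measured.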
